A study of Rattus norvegicus with 19 samples.

Results

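The genes described here are 35 genes of neural stem cells, neurogenic transcription factors, immature neurons and the cell cycle, measured by RNA-seq in hippocampi from male rats of the Sprague Dawley strain. They were chosen by gene symbol, and 33 of them were found among the 32623 genes of the count tables. Sox4 and Mex3a had no row under these symbols and were not analysed here. Of the 33 members, 30 had enough reads to be tested, and Eomes, Rrm2 and Cdk1 fell under the expression filter and are described by their read counts.

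The rats carried changes made with CRISPR/Cas9 in the segment of rat chromosome 1 from Sult1a1 to Spn, which corresponds to the human 16p11.2 interval. The 4 Del/+ rats lacked the interval on one chromosome and held 1 copy, the 6 wt littermates held 2 copies, the 5 Dup/+ rats held 3 copies, and the 4 Del/Dup rats carried the deletion on one chromosome and the duplication on the other and so again held 2 copies. The line is outbred, the alteration is in every cell of the body, and the hippocampus was taken whole, so the sub-granular zone was never measured on its own. The rats are described as adult, and their age at collection was not given in the sources used here.

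In the adult rodent hippocampus, new granule neurons are made in the sub-granular zone of the dentate gyrus. Radial glia-like stem cells that express Sox2, nestin and the Notch target Hes5 give rise to dividing intermediate progenitors that express Eomes, then to Neurod1-positive neuroblasts and immature neurons that express Dcx, Sox11 and Igfbpl1. Dividing cells are recognised by the mRNAs of replication proteins (the Mcm helicase, Pcna, Tyms) and of mitotic proteins (Mki67, Top2a, cyclins). Several of these genes are not limited to new neurons. Sox2 and Hes5 are also made by astrocytes, Neurod2, Neurod6, Tubb3, Stmn1 and Stmn2 by mature neurons, and cell cycle genes by oligodendrocyte precursors and other dividing cells.

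The counted reads per library ranged from 16191192 to 38760645. The share of aligned lines that mapped to several places separated the libraries. It was 40.1 to 47.6% in wt, 45.1 to 50.5% in Dup/+, 57.8 to 70.7% in Del/Dup and 63.9 to 76.3% in Del/+ replicates 1 to 3, whereas Del/+ replicate 4 was at 41.6%. Genotype and this share can therefore not be told apart in Del/Dup, and in Del/+ only replicate 4 has a share like that of wt. Choroid plexus RNA also differed: the summed level of 6 choroid plexus markers in CPM (the reads of a gene scaled to a common library size by TMM) was 3.78 to 35 among the wt libraries, reached 408 among the Dup/+ libraries and 1260 among the Del/+ libraries, and spanned 41.7 to 1210 among the Del/Dup libraries. The interval genes followed the labels, with Mapk3 at 49.2 ± 8.42 CPM in Del/+ (SD, n = 4), 94.8 ± 3.67 in wt (n = 6), 90.6 ± 7.37 in Del/Dup (n = 4) and 141 ± 9.86 in Dup/+ (n = 5). The description of wt replicate 5 says wt while its genotype field says Dup/+; Mapk3 was at 88.5 to 98.4 CPM in the 6 libraries counted as wt, this one included, and at 129 to 154 CPM in Dup/+. The granule neuron marker Prox1 was at 76.8 to 195 CPM, and 6 pyramidal neuron markers summed to 569 to 990 CPM, with 1 of them, Fibcd1, listed at 0 reads throughout.

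No member passed an adjusted p of 0.05 in any of the 5 comparisons made with the quasi-likelihood test of edgeR. Over all 15440 genes tested, the share called was 0.771% for Del/+ against wt, 0.272% for Dup/+ against wt, 0.0907% for Del/Dup against wt, 0.784% for Del/+ against Dup/+ and 0.576% for the slope on the number of interval copies. The Wald test of DESeq2 called 1 member, Pcna in Del/+ against wt, and none in the other 4 comparisons. Under that test 655 genes were called for Del/+ against wt, 6.93% of those given an adjusted p. An unadjusted p under 0.05 was found for 8 of the 30 members in Del/+ against wt (background 18.4% of all genes), 5 in Dup/+ against wt (8.94%), 6 in Del/Dup against wt (16.2%), 8 in Del/+ against Dup/+ (13.5%) and 6 for the slope (11.5%). In percent of the members these counts were 26.7, 16.7, 20, 26.7 and 20, each above the share of all genes by no more than a few members. The median log2 fold change of the members was -0.01 in Del/+, 0.04 in Dup/+ and -0.01 in Del/Dup, against 0 for all genes in each of these comparisons. All 3 comparisons against wt use the same wt libraries, so values set side by side below are not independent of each other. Because whole tissue was sequenced, fewer cells of a type and less RNA per cell cannot be told apart in any of these values.

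**Figure D1:**
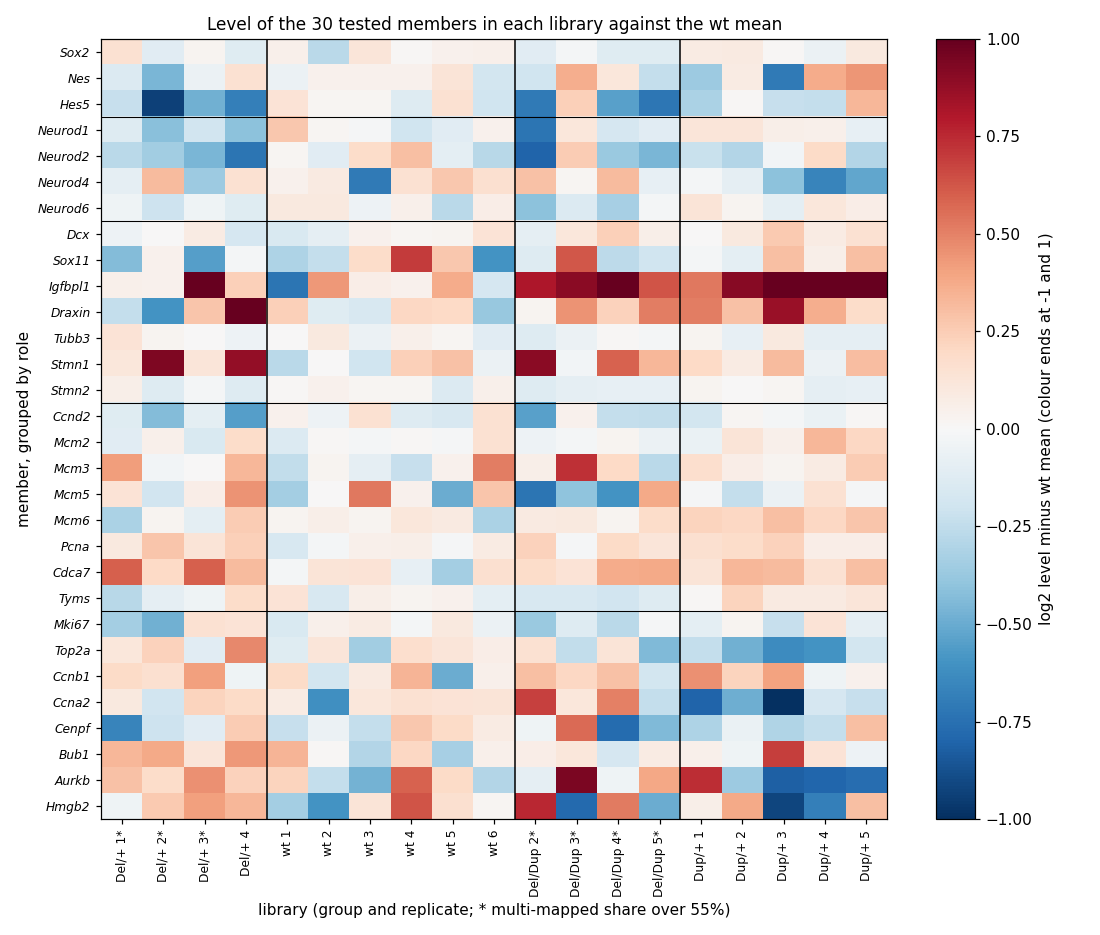
Level of each of the 30 tested members (rows, grouped by role) in each of the 19 libraries (columns, by genotype), as log2 level minus the wt mean, with colours ending at -1 and 1 and an asterisk on the 7 libraries with over 55% multi-mapped lines. Igfbpl1 is above the wt mean in all Dup/+ and Del/Dup libraries, Hes5 and Neurod2 are below it in all Del/+ libraries, and the colours of Sox2, Tubb3 and Stmn2 stay pale throughout.

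Among the stem cell genes, Hes5, a transcriptional repressor switched on by Notch in stem cells and astrocytes, had a lower mean in Del/+ than in wt, 6.35 ± 1.32 against 9.42 ± 0.903 CPM (SD, n = 4 and n = 6), and Sox2 and nestin had no unadjusted p under 0.05. Hes5 was at 7.99, 4.88, 6.69 and 5.83 CPM in the 4 Del/+ libraries, and at 8.16 to 10.4 with a median of 9.53 in wt. All 4 Del/+ libraries lay below all wt libraries, with a log2 fold change of -0.56 ± 0.171 (SE), an unadjusted p of 0.00367 and an adjusted p of 0.102. In Del/Dup the levels were 5.7, 11.1, 6.43 and 5.64 CPM. Thus 3 Del/Dup libraries were below the wt range and replicate 3 was above it. The log2 difference of -0.40 ± 0.174 became -0.66 without replicate 3, with an adjusted p of 0.0428 in place of 0.272. Leaving out this library also raised the share of all genes called in Del/Dup against wt, from 0.0907% to 1.38%. Dup/+ libraries spanned 7.51 to 11.8 CPM and overlapped wt, with a log2 difference of -0.07 ± 0.159. In Del/+ the level was below the wt range both in replicate 4, which has a low multi-mapped share (5.83 CPM), and in the 3 libraries of high share (4.88 to 7.99 CPM). Using only low-share libraries, Del/+ is replicate 4 alone, which is then assumed to vary like the other groups, so such values say nothing about the spread among Del/+ rats. The log2 difference of Hes5 between this 1 library and wt was -0.69. The Del/+ difference of Hes5 was called when Del/Dup replicate 3 was left out of the fit, at -0.56 with an adjusted p of 0.0346. That fit called 1.8% of all genes in Del/+ against wt, in place of 0.771%.

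Sox2, the transcription factor that maintains neural stem cells, was at 48.3 ± 4.31 CPM in wt (SD, n = 6), 47.9 ± 4.33 in Del/+ (n = 4), 49.7 ± 2.38 in Dup/+ (n = 5) and 45.1 ± 1.61 in Del/Dup (n = 4). By library it was at 53.5, 44.7, 49.1 and 44.3 CPM in Del/+, at 50.9, 51.4, 48.4, 46.1 and 51.7 in Dup/+, at 44.5, 47.5, 44.3 and 44.2 in Del/Dup, and at 39.9 to 52.3 in wt. All groups overlapped, and the approximate 95% interval of the log2 difference between Del/+ and wt ran from -0.14 to 0.12. Nes, which encodes the intermediate filament nestin, rested on 17 to 72 reads a library. It was at 1.56, 1.23, 1.66 and 1.93 CPM in Del/+, 1.32, 1.83, 1.02, 2.27 and 2.37 in Dup/+, 1.5, 2.25, 1.87 and 1.45 in Del/Dup and 1.51 to 1.9 in wt. Every group overlapped with wt, and at this depth the interval for Del/+ against wt, -0.48 to 0.27 on the log2 scale, left room for moderate differences either way.

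The 250 bases before the annotated start of Hes5 hold sequence elements of interest for a Notch target, and they are printed from RefSeq (GRCr8 build, chr5:170804327-170804576, plus strand, 5′ to 3′; the reads themselves were counted on the older rn6 build). The capitals mark TGGGAA, the core bound by the Notch effector Rbpj, and CCAAT, bound by NF-Y, each in either orientation, with no overlap between matches.
Hes5: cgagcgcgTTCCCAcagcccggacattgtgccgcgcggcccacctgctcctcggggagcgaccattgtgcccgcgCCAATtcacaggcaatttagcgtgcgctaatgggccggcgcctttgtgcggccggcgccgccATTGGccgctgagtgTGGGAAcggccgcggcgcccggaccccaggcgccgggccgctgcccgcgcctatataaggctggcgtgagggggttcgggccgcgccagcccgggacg
TGGGAA was present on one strand or the other in 22.1% of all 33469 RefSeq windows of this length and in 7 of the 29 listed members that had a window, Hes5 among them. A match of this kind is a description of the letters and not of binding.

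Of the neurogenic transcription factors, Neurod1 and Neurod2 had lower means in Del/+ than in wt and Neurod6 in Del/Dup, each at an unadjusted p under 0.05 and none called. These bHLH factors drive the differentiation of excitatory neurons, and Neurod1 is needed for granule neurons to mature. Neurod2 was at 54.3, 51.3, 47.7 and 39.6 CPM in Del/+ against 54 to 80.5 with a median of 63.8 in wt. Of the 4 Del/+ libraries 3 were below every wt library, with a log2 fold change of -0.46 ± 0.154, an unadjusted p of 0.00746 and an adjusted p of 0.124. For the 1 low-share Del/+ library the difference of Neurod2 was -0.74. Del/Dup libraries were at 37.7, 78.2, 50.7 and 47.7 CPM, so that 3 lay below the wt range and replicate 3 near its top. The log2 difference in Del/Dup was -0.31 ± 0.155, and it was -0.54 with an adjusted p of 0.0487 when replicate 3 was left out. The share of all genes called in Del/Dup against wt was then 1.38% in place of 0.0907%. Dup/+ libraries, at 56.3, 53.8, 64.2, 74.7 and 53.5 CPM, overlapped wt.

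Neurod1 was at 26.8, 22, 25.7 and 22 CPM in Del/+, 17.7, 31.7, 26 and 27.2 in Del/Dup, 32, 31.9, 30.5, 30.4 and 27.8 in Dup/+, and 25.5 to 35.3 with a median of 29.4 in wt. All 4 Del/+ libraries were below all 5 Dup/+ libraries, with a log2 difference of -0.34 ± 0.118 and an adjusted p of 0.21. Against wt the Del/+ difference was -0.29 ± 0.113 with an adjusted p of 0.177, and the groups overlapped. Neurod6 was at 189, 228, 199 and 248 CPM in Del/Dup against 209 to 269 in wt, a log2 difference of -0.22 ± 0.0762 with an unadjusted p of 0.0087 and an adjusted p of 0.194. In Del/+ it was at 245, 218, 244 and 232 CPM and overlapped wt fully, whereas in Dup/+ it was at 275, 257, 235, 271 and 264 CPM. Neurod4, a proneural factor of early neuronal precursors, was at 0.371 to 0.861 CPM over all libraries, and no comparison of it had an unadjusted p under 0.05.

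Within the immature neuron group, Igfbpl1, a secreted protein of the insulin-like growth factor binding protein family, had a higher mean in all 3 carrier groups, Stmn1 in Del/+ and Del/Dup, and Dcx in none of them at an unadjusted p under 0.05. Igfbpl1 was a low gene with 12 to 84 reads a library. It was at 0.908, 1.21, 1.79, 1.69 and 1.66 CPM in Dup/+ and at 0.319 to 0.841 with a median of 0.623 in wt. The Dup/+ and wt groups did not overlap, with a log2 fold change of 1.13 ± 0.301, an unadjusted p of 0.00123 and an adjusted p of 0.2, which became 0.0213 with the same fold change when Del/+ replicate 3 was left out of the fit. In Del/Dup, Igfbpl1 was at 1.12, 1.2, 1.48 and 0.98 CPM, again above all wt libraries, with a log2 difference of 0.88 ± 0.324 and an adjusted p of 0.21. In Del/+ it was at 0.623, 0.615, 2.21 and 0.726 CPM. The log2 difference of 0.72 for Igfbpl1 in Del/+ rested on replicate 3, and was 0.09 without it. That library, Del/+ replicate 3, also held the most Ttr of its group, a choroid plexus mRNA, at 1130 CPM against 2.38 to 81.5 in the other Del/+ libraries. With Ttr as a covariate the log2 difference of Igfbpl1 was 0.35 in Del/+, 0.95 in Dup/+ and 0.38 in Del/Dup.

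Stmn1, the microtubule destabiliser stathmin, is high in neuroblasts and stays on in mature neurons. It was at 81.2, 143, 81.7 and 139 CPM in Del/+, 140, 73.6, 113 and 94.2 in Del/Dup, 86.3, 79.4, 93.6, 72 and 93.4 in Dup/+, and 62.4 to 92 with a median of 73.4 in wt. In Del/+ the libraries fell into a pair near 81 and a pair near 140 CPM, and the low-share replicate 4 belonged to the high pair. The log2 fold change of Stmn1 against wt was 0.55 ± 0.173 in Del/+ (unadjusted p 0.00484, adjusted p 0.109) and 0.47 ± 0.175 in Del/Dup (adjusted p 0.212), with overlap in both. For the 1 low-share Del/+ library, replicate 4, which is of the high pair, the log2 difference of Stmn1 was 0.87, with an adjusted p of 0.017 whose spread comes from the other groups.

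Dcx, the microtubule protein by which migrating neuroblasts are usually counted, was at 39.6, 40.9, 43.3 and 36.4 CPM in Del/+, 41.1, 44.1, 49.1, 43.3 and 45.5 in Dup/+, 38.6, 44.4, 48.4 and 42.8 in Del/Dup and 37.1 to 45.3 in wt. Its approximate 95% interval for Del/+ against wt was -0.17 to 0.09 on the log2 scale, and for Dup/+ against wt -0.01 to 0.24. Between Del/+ and Dup/+ the log2 difference was -0.15 ± 0.0688 with an unadjusted p of 0.0378 and an adjusted p of 0.337. The other members of this group, Sox11, Draxin, Tubb3 and Stmn2, had no unadjusted p under 0.05. Tubb3 and Stmn2, cytoskeletal genes that mature neurons also express, varied little within groups, with a pooled SD of 0.08 and 0.07 on the log2 scale. Sox11 (2.23 to 5.65 CPM in wt alone), a factor of newborn neurons, and Draxin (0.328 to 1.26 CPM in Del/+), an axon guidance protein, varied widely.

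**Figure D2:**
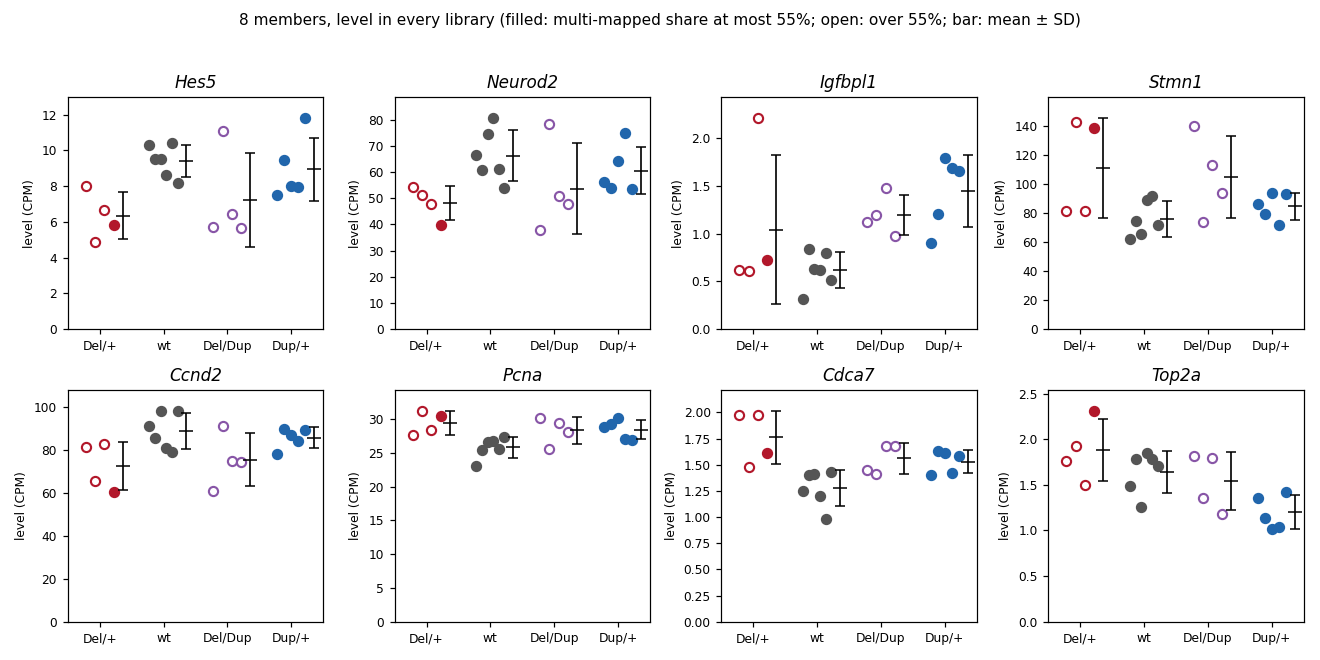
Level in CPM (vertical axes, from 0) of 8 members in every library by genotype; filled points are libraries with at most 55% multi-mapped lines, open points those above it, and the bar beside each group is its mean ± SD. The Del/+ and wt points are separate for Hes5, Pcna and Cdca7, the Dup/+ and wt points for Igfbpl1, and the Del/+ and Dup/+ points for Top2a.

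Of the 8 replication genes tested, Pcna and Cdca7 had higher means in Del/+ than in wt and Ccnd2 a lower one at an unadjusted p under 0.05, and none was called. Pcna, the sliding clamp of DNA polymerases that also serves DNA repair in non-dividing cells, was at 27.6, 31.2, 28.3 and 30.5 CPM in Del/+ against 23.1 to 27.3 with a median of 26.1 in wt. The groups did not overlap, though the difference was small, with a log2 fold change of 0.19 ± 0.0561, an unadjusted p of 0.003 and an adjusted p of 0.0956. Under DESeq2 the same difference of Pcna had an adjusted p of 0.0315, in a fit that called 6.93% of the genes given an adjusted p. The other carrier groups had higher means of Pcna as well, Dup/+ at 28.8, 29.2, 30.2, 27.1 and 26.9 CPM and Del/Dup at 30.2, 25.6, 29.4 and 28 CPM, with a log2 difference of 0.14 in each and adjusted p values of 0.462 and 0.255. All 3 carrier groups thus had a higher mean than wt, and 3 of 5 Dup/+ and 3 of 4 Del/Dup libraries lay above every wt library.

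Cdca7, a zinc finger protein needed to keep DNA methylated as cells divide, was at 1.97, 1.48, 1.97 and 1.61 CPM in Del/+ and 0.983 to 1.43 with a median of 1.33 in wt. Again the groups did not overlap, with a log2 fold change of 0.45 ± 0.129, an unadjusted p of 0.00255 and an adjusted p of 0.0925, the smallest of any member in Del/+. In Dup/+ it was at 1.4, 1.63, 1.61, 1.42 and 1.58 CPM and in Del/Dup at 1.45, 1.41, 1.68 and 1.68 CPM. Both overlapped wt, with log2 differences of 0.25 ± 0.126 and 0.28 ± 0.135 and unadjusted p values of 0.0633 and 0.0531. Each library held 27 to 75 reads of Cdca7.

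Cdca7 is a target of E2F and Myc, and the 250 bases before its annotated start (GRCr8, chr3:77730065-77730314, plus strand) are shown because it had the smallest p in Del/+. The capitals mark GCGGGAA, an E2F-type element, and TTTGAA, the cell cycle homology element, in either orientation.
Cdca7: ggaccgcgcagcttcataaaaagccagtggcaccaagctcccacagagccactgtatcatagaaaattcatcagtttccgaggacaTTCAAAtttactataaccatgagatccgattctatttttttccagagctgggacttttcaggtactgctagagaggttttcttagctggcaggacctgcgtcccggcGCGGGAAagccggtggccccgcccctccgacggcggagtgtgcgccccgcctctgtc
GCGGGAA was found in 3.36% of all windows and in 3 of the 29 members with a window, Cdca7, Mcm5 and Mex3a. TTTGAA was found in 16.2% of all windows and in 10 of the 29.

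Ccnd2, the D-type cyclin of hippocampal progenitors that mature neurons also make, was at 81.2, 65.5, 82.6 and 60.2 CPM in Del/+, 60.9, 91, 74.7 and 74.4 in Del/Dup, 78, 89.4, 87, 84.1 and 89.2 in Dup/+ and 78.9 to 98 in wt. Its log2 fold change was -0.29 ± 0.0986 in Del/+ (unadjusted p 0.00788, adjusted p 0.127) and -0.24 ± 0.0993 in Del/Dup (adjusted p 0.254). For the 1 low-share Del/+ library, replicate 4, which had the least Ccnd2 of its group, the log2 difference was -0.56, with an adjusted p of 0.0243 whose spread again comes from the other groups. Below the wt range lay 2 of 4 Del/+ and 3 of 4 Del/Dup libraries, and 1 of 5 Dup/+ libraries. Mcm2, a helicase subunit that marks cells licensed to divide, was at 4.53, 5.09, 4.4 and 5.56 CPM in Del/+, 4.66, 5.36, 5.08, 6.16 and 5.66 in Dup/+, 4.72, 4.81, 4.99 and 4.7 in Del/Dup and 4.44 to 5.45 in wt. The Del/+ and wt means of Mcm2 were 4.89 and 4.9 CPM, with an interval of -0.19 to 0.19 for the log2 difference. Mcm6, another helicase subunit, had a higher mean in Dup/+, at 5.43 to 5.8 CPM against 3.74 to 5.07 in wt with no overlap, a log2 difference of 0.23 ± 0.0949 and an adjusted p of 0.486. Mcm3, Mcm5 and the thymidylate synthase gene Tyms had no unadjusted p under 0.05 in any comparison.

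The mitotic genes showed no member at an unadjusted p under 0.05 in Del/+ or Del/Dup against wt, and 2 of 8 in Dup/+, Top2a and Ccna2, both with lower means than in wt. Top2a, the topoisomerase that untangles chromosomes in dividing cells, was at 1.36, 1.14, 1.02, 1.04 and 1.42 CPM in Dup/+ and 1.26 to 1.85 with a median of 1.74 in wt. The log2 fold change was -0.43 ± 0.155, with an unadjusted p of 0.0116 and an adjusted p of 0.414. In Del/+ it was at 1.76, 1.93, 1.5 and 2.31 CPM, all above all Dup/+ libraries, and in Del/Dup at 1.82, 1.36, 1.79 and 1.18 CPM. Ccna2, which encodes cyclin A2 of the S and G2 phases, had 3 to 26 reads a library. It was at 0.289, 0.381, 0.179, 0.5 and 0.475 CPM in Dup/+, 0.623, 0.492, 0.684 and 0.672 in Del/+, 0.981, 0.628, 0.857 and 0.47 in Del/Dup and 0.343 to 0.651 in wt. The Dup/+ levels overlapped wt and Del/+, and the log2 difference from wt was -0.56 ± 0.227 with an adjusted p of 0.488.

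Mki67, which encodes the Ki-67 protein by which dividing cells are stained, was at 5.95, 5.37, 8.37 and 8.36 CPM in Del/+, 7.06, 7.72, 6.45, 8.35 and 7.08 in Dup/+, 5.84, 6.91, 6.27 and 7.52 in Del/Dup and 6.78 to 8.14 with a median of 7.64 in wt. The Del/+ libraries were split, with 2 below and 2 above the wt range. The approximate 95% interval of the log2 difference from wt ran from -0.33 to 0.13 for Del/+, from -0.26 to 0.18 for Dup/+ and from -0.42 to 0.05 for Del/Dup. Ccnb1, Cenpf, Bub1, Aurkb and Hmgb2, with group means of 0.401 to 1.64 CPM, had no unadjusted p under 0.05 in any comparison. Aurkb, a mitotic kinase, was at 0.299 to 0.45 CPM in 4 Dup/+ libraries and at 1.07 in the fifth.

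**Figure D3:**
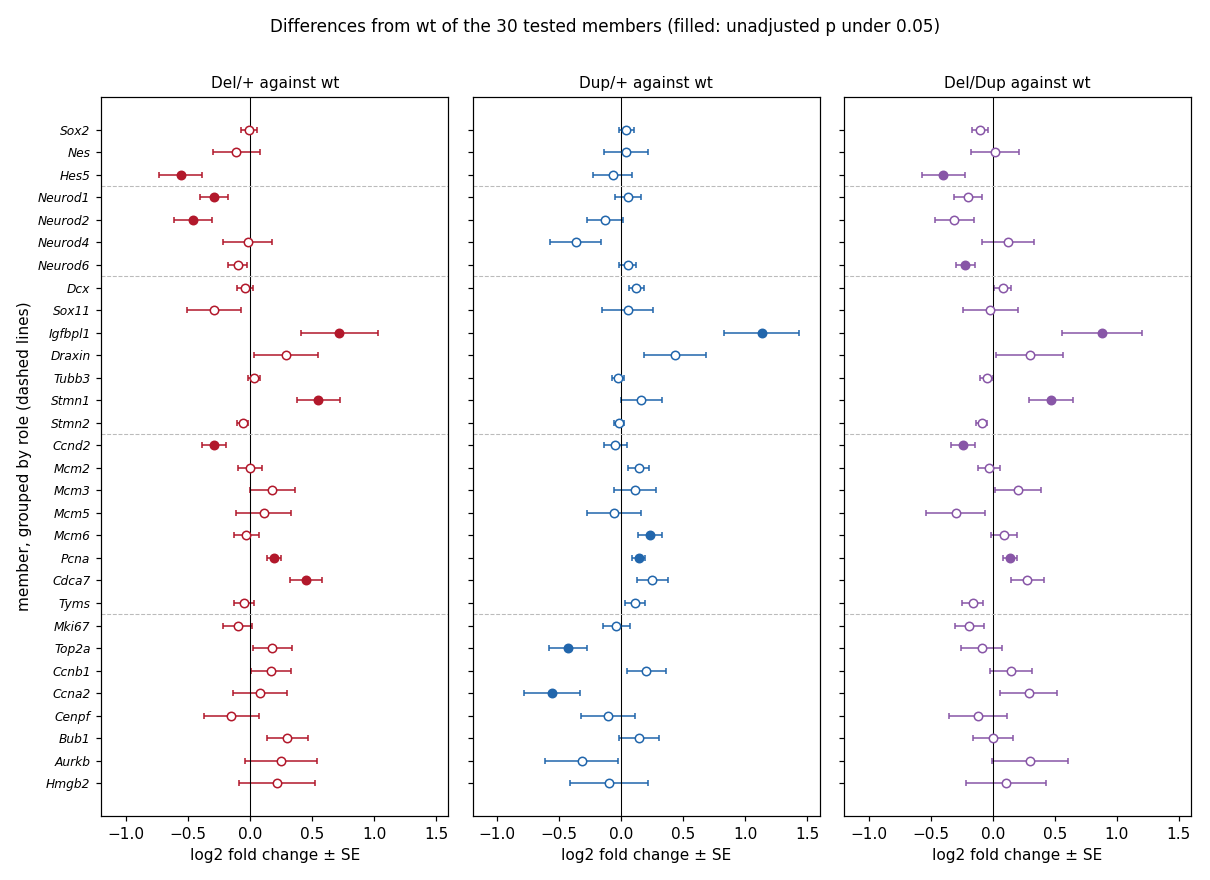
Log2 fold change (horizontal axes) ± SE of the 30 tested members, grouped by role, in Del/+, Dup/+ and Del/Dup against wt; filled points have an unadjusted p under 0.05 and none has an adjusted p under 0.05. Hes5, Neurod2 and Ccnd2 lie left of 0 and Stmn1, Pcna and Cdca7 right of 0 in Del/+, and Top2a and Ccna2 have filled points left of 0 in Dup/+.

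Of the tested members, Top2a had the smallest p between Del/+ and Dup/+, with a log2 difference of 0.61 ± 0.168, an unadjusted p of 0.0016 and an adjusted p of 0.107. For the slope, the change per copy of the interval over all 19 libraries, Top2a was at -0.31 ± 0.083 on the log2 scale with an unadjusted p of 0.00125 and an adjusted p of 0.123. Using only libraries of low multi-mapped share the Top2a difference between Del/+ and Dup/+ was 0.91, from 1 Del/+ library. Ccna2 had a log2 difference of 0.64 ± 0.245 and an adjusted p of 0.256. Mcm6 had a log2 difference of -0.26 ± 0.105 between Del/+ and Dup/+, and of 0.01 when only low-share libraries, 1 of them Del/+, were used. Positive slopes at an unadjusted p under 0.05 were found for Hes5 (0.23), Neurod1 (0.17), Dcx (0.08) and Mcm6 (0.13), and negative ones for Top2a and Ccna2 (-0.31 each). Tested members whose groups did not overlap numbered 3 in Del/+ against wt (background 4.94% of all genes), 2 in Dup/+ against wt (1.17%), 1 in Del/Dup against wt (2.56%) and 2 in Del/+ against Dup/+ (5.3%).

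The upstream window of Top2a (GRCr8, chr10:84473094-84473343, minus strand) is given as that of the mitotic member with the smallest p. The capitals mark CCAAT and TTTGAA, the pair of elements typical of genes switched on in G2 and M phases, in either orientation.
Top2a: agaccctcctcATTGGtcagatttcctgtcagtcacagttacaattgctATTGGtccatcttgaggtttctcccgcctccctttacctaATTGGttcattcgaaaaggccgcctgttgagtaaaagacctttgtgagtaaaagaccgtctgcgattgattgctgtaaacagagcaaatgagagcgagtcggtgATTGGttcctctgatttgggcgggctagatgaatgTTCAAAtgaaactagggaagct
CCAAT was found in 34% of all windows and in 17 of the 29 members with a window. Of the 7 mitotic members with a window, 6 held CCAAT and 4 held TTTGAA (Cdk1, Hmgb2, Mki67 and Top2a). CCAAT was held by 4 of 7 replication, 3 of 7 immature neuron, 2 of 5 transcription factor and 2 of 3 stem cell members, and TTTGAA by 2, 3, 0 and 1 of them, and the difference between roles was not tested. Ccna2 and Aurkb had no entry. Top2a, Mki67, Cdk1 and Hmgb2 thus share these letters, but of the 4 only Top2a had an unadjusted p under 0.05 in any comparison.

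The 3 members under the expression filter are markers of intermediate progenitors (Eomes) and of dividing cells (Rrm2 and Cdk1). Their low counts are what placed them under the filter, and other genes of dividing cells had more reads, with a median of 234.5 for Mki67 and 151 for Mcm2 in wt. Eomes, the transcription factor of intermediate progenitors also known as Tbr2, had 0 to 5 reads in wt, 1, 2, 1 and 1 in Del/+, 3, 9, 2, 2 and 3 in Dup/+ and 3, 1, 2 and 3 in Del/Dup. Summed, these were 13 reads in 6 wt, 5 in 4 Del/+, 19 in 5 Dup/+ and 9 in 4 Del/Dup libraries. When all 24345 genes with a read were tested, Eomes had an unadjusted p of 0.0102 for Del/+ against Dup/+ and an adjusted p of 0.285, and a slope of 0.50 ± 0.165 with an unadjusted p of 0.00536 and an adjusted p of 0.274. Rrm2, the ribonucleotide reductase subunit made in S phase, had 4 to 12 reads in wt, 5, 1, 8 and 8 in Del/+, 1, 1, 1, 2 and 3 in Dup/+ and 2, 3, 0 and 5 in Del/Dup. Each Dup/+ library had fewer Rrm2 reads than each wt library, 8 reads in 5 libraries against 48 in 6. Dup/+ libraries held 16191192 to 29183777 counted reads and wt libraries 25642772 to 38760645. Scaled to a common library size, the Rrm2 means were 0.0663 ± 0.0337 CPM in Dup/+ and 0.266 ± 0.114 in wt (SD). The log2 difference was -1.28 ± 0.368, with an unadjusted p of 0.00192 and an adjusted p of 0.343 in that unfiltered test. Rrm2 was also at -0.89 ± 0.397 in Del/Dup against wt (adjusted p 0.367) and 0.79 ± 0.38 in Del/+ against Dup/+ (adjusted p 0.497). Cdk1, the kinase that starts mitosis, had 1 to 12 reads in wt, 2, 6, 6 and 19 in Del/+, 5, 6, 2, 10 and 9 in Dup/+ and 3, 2, 3 and 6 in Del/Dup, and no comparison had an unadjusted p under 0.05. At these depths only large differences of the 3 genes could have been seen.

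**Figure D4:**
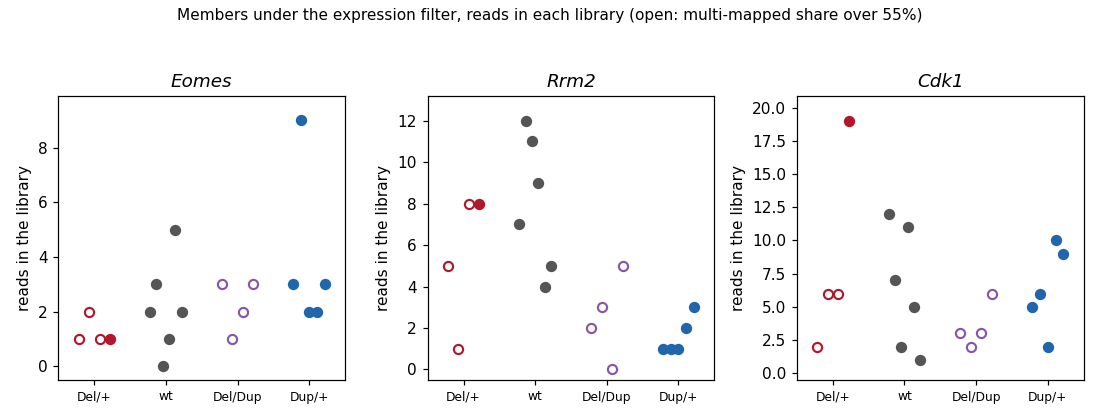
Reads (vertical axes, from 0) of Eomes, Rrm2 and Cdk1 in every library by genotype, with open points for libraries of over 55% multi-mapped lines. Rrm2 has 1 to 3 reads in the Dup/+ libraries and 4 to 12 in wt, and Eomes never exceeds 9 reads.

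Single libraries were also compared, for a set of genes chosen after their values were seen. The 3 libraries with the most Stmn1, Del/+ replicates 2 and 4 and Del/Dup replicate 2 (143, 139 and 140 CPM), had the least Ccnd2 (65.5, 60.2 and 60.9 CPM) and the least Neurod1 (22, 22 and 17.7 CPM). Their Hes5 was at 4.88, 5.83 and 5.7 CPM, below every wt and Dup/+ library, but Del/Dup replicate 5 had as little Hes5 (5.64 CPM) with Stmn1 at 94.2 CPM. After the group means were removed, the log2 levels of Stmn1 and Ccnd2 had a Pearson's r of -0.86 and a Spearman's rho of -0.81 over the 19 libraries, with permutation p values of 0.00183 and 0.00306. Adjusted over the 435 pairs of tested members these were 0.217 and 0.324, and no pair had an adjusted p under 0.05. Without the 2 libraries farthest from the median of Stmn1, Del/Dup replicates 2 and 3, r was -0.79, and it was -0.70 within the 12 low-share libraries and -0.95 within the 7 high-share libraries. The pair Neurod1 and Stmn1 had r = -0.82 and rho = -0.82, with permutation p values of 0.00016 and 0.00067, adjusted to 0.0696 and 0.291, and r = -0.78 without the same 2 libraries. Prox1, the marker of granule neurons, was lowest in Del/Dup replicate 2 (76.8 CPM) and Del/+ replicate 2 (103 CPM) and was at 134 CPM in Del/+ replicate 4 and at 136 to 195 CPM in wt. The summed level of 5 granule neuron markers was 250 CPM in Del/+ replicate 2, 315 in Del/+ replicate 4 and 219 in Del/Dup replicate 2, and its part in the values of these genes was not tested.

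**Figure D5:**
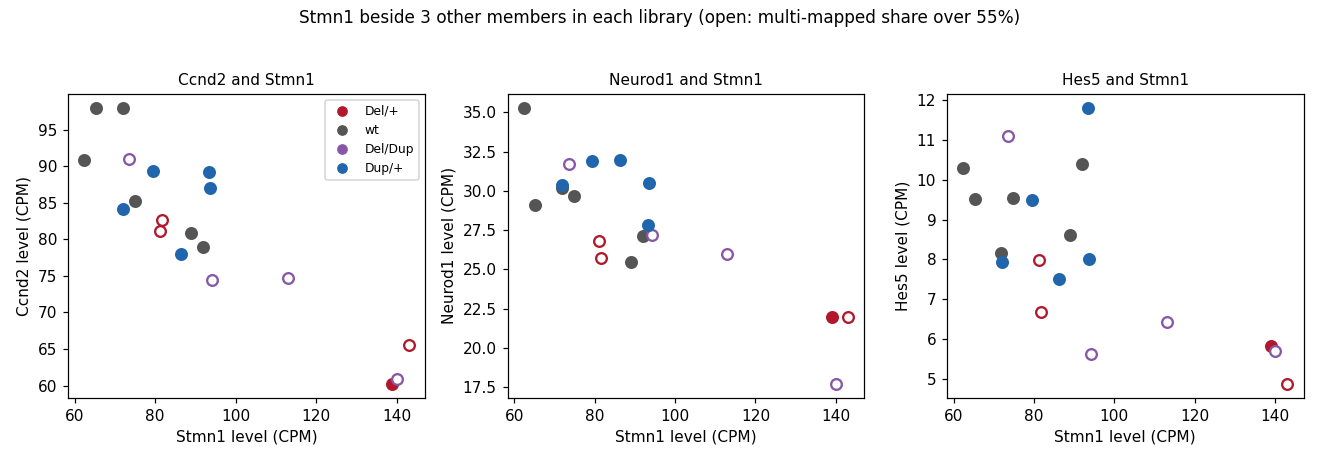
Level in CPM of Ccnd2, Neurod1 and Hes5 (vertical axes) against Stmn1 (horizontal axis) in each of the 19 libraries, coloured by genotype, with open points for over 55% multi-mapped lines. Del/+ replicates 2 and 4 and Del/Dup replicate 2 lie at the right with 139 to 143 CPM of Stmn1 and at the bottom for Ccnd2 and Neurod1.

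The spread within groups differed between members. On the log2 scale the pooled SD was 0.07 to 0.11 for Stmn2, Tubb3, Pcna, Sox2, Dcx and Tyms and 0.37 to 0.56 for Sox11, Cenpf, Ccna2, Draxin, Aurkb, Igfbpl1 and Hmgb2. The second set are low genes with 3 to 165 reads a library, and Hmgb2 (3 to 23 reads a library) was more variable than 95.5% of the genes tested.

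Other genes of the same pathway were read from lists of niche signals, regulators of granule cell birth and further cell cycle genes. Of 28 niche genes, which supply the Bmp, Wnt, Notch, Shh and growth factor signals around stem cells, 1 was called. It was called for Del/+ against Dup/+ and for the slope, where 0.784 and 0.576% of all genes were called. Wnt7b, a Wnt ligand of neurons, was at 81.9, 69.5, 76.3 and 58.7 CPM in Del/+, 89.2, 93.7, 101, 88.9 and 98.1 in Dup/+, 64.1, 92.1, 78 and 75.1 in Del/Dup and 75.4 to 92.5 in wt. All Del/+ libraries lay below all Dup/+ libraries, with a log2 difference of -0.40 ± 0.0913 and an adjusted p of 0.0427, and the slope of Wnt7b was 0.20 ± 0.0449 per copy with an adjusted p of 0.0402. The first call was lost in 17 of 29 alternative fits, which included leaving out any 1 of the 5 Dup/+ libraries, Del/+ replicates 2, 3 or 4, wt replicates 2, 4, 5 or 6 or Del/Dup replicates 4 or 5. The call of the slope was lost in 11 of 29, which included leaving out any 1 Dup/+ library, Del/+ replicates 2 or 4 or wt replicates 4 or 6. Over the 29 fits the log2 difference ranged from -0.68 to -0.31 and the slope from 0.16 to 0.27. The adjusted p of Wnt7b ranged from 0.00341 to 0.167 for the difference and from 0.00408 to 0.206 for the slope, and without Del/+ replicate 4 the log2 difference was -0.31 and the slope 0.16.

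No niche gene was called against wt. The 2 with the smallest p in Del/+ were Fgfr1, a receptor of fibroblast growth factors, at -0.38 ± 0.109 (adjusted p 0.0903), and Gli1, the transcriptional readout of Shh signalling, at 1.07 ± 0.347 (adjusted p 0.118). In Dup/+ they were Dkk3, a secreted protein related to Wnt antagonists, at -0.15 ± 0.0494 (adjusted p 0.328), and Bmp6 at -0.25 ± 0.092 (adjusted p 0.425). In Del/Dup they were Frzb, a secreted Wnt antagonist, at -0.55 ± 0.175 (adjusted p 0.173), and Fgfr1 at -0.32 ± 0.109 (adjusted p 0.192). At an unadjusted p under 0.05 there were 2 niche genes with a higher and 6 with a lower mean in Del/+, 2 and 4 in Dup/+, and 2 and 4 in Del/Dup. In percent of the 28 niche genes these were 28.6 in Del/+, 21.4 in Dup/+ and 21.4 in Del/Dup, against 18.4, 8.94 and 16.2% of all genes.

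Among the regulators and stage markers, 28 genes were tested and none was called. In Del/+ 3 had a higher and 7 a lower mean at an unadjusted p under 0.05 (35.7% of the list against 18.4% of all genes). In Dup/+ 4 (14.3% against 8.94%) and in Del/Dup 3 (10.7% against 16.2%) reached that level. The smallest p values in Del/+ were those of Lhx2, a forebrain transcription factor (-0.20 ± 0.0574, adjusted p 0.0946), and Lpar1, a receptor used to mark dentate progenitors (0.34 ± 0.0988, adjusted p 0.0946). Neurog2, a proneural factor upstream of Eomes, had a log2 difference of -1.09 ± 0.295 between Del/+ and Dup/+ with an adjusted p of 0.103. It was at 0.242, 0.328, 0.658 and 0.457 CPM in Del/+ and 0.826, 0.796, 1.14, 1.08 and 1.19 in Dup/+, with no overlap. Against wt, with a mean of 0.855 CPM, Neurog2 had a log2 difference of -0.87 ± 0.282 in Del/+ (unadjusted p 0.00575, adjusted p 0.115), 0.21 ± 0.255 in Dup/+ and -0.19 ± 0.281 in Del/Dup. Lpar1 was at 0.27 ± 0.104 between Del/+ and Dup/+ (adjusted p 0.247). In Del/Dup, Hopx, a stem cell and astrocyte gene, was at 0.36 ± 0.0981 (adjusted p 0.138) and Bcl11b, a factor of granule neuron maturation, at -0.30 ± 0.106 (adjusted p 0.206). In Dup/+, Vim, the filament vimentin of radial glia, was at 0.21 ± 0.0659 (adjusted p 0.324) and Cd24, a surface protein of young neurons, at -0.19 ± 0.0715 (adjusted p 0.45).

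Of 34 further cell cycle genes tested none was called, and 4 in Del/+, 2 in Dup/+ and 5 in Del/Dup had an unadjusted p under 0.05. These were 11.8, 5.88 and 14.7% of the list, each below the 18.4, 8.94 and 16.2% of all genes. Rrm1, the partner subunit of Rrm2, was at 0.18 ± 0.0538 in Del/+ (adjusted p 0.0974). Cdkn1a, the inhibitor p21 that halts the cycle, was at 0.56 ± 0.196 in Del/+ (adjusted p 0.139) and 0.72 ± 0.199 in Del/Dup (adjusted p 0.144). E2f3, an activator of S phase genes, was at -0.18 ± 0.0546 in Del/Dup (adjusted p 0.16), and in Dup/+ the S phase kinase gene Cdk2 was at 0.28 ± 0.127 (adjusted p 0.541) and the spindle checkpoint kinase gene Ttk at -0.31 ± 0.148 (adjusted p 0.555). Between Del/+ and Dup/+, 4 of the 34 (11.8% against 13.5% of all genes) had an unadjusted p under 0.05, and the smallest p values were those of the mitotic genes Cdc20 at 0.67 ± 0.236 (adjusted p 0.214) and Tpx2 at 0.64 ± 0.234 (adjusted p 0.227).

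Markers of other cells that share these genes were checked in the same fits, and their counts at an unadjusted p under 0.05 stand against 18.4% of all genes in Del/+, 8.94% in Dup/+ and 16.2% in Del/Dup, so that 1 or 2 markers of a short list are near that background. Of 7 astrocyte markers, 2 in Del/+, 0 in Dup/+ and 1 in Del/Dup had an unadjusted p under 0.05, all lower, and their summed level was 4480 to 4760 CPM in Del/+ and 4450 to 5400 CPM in wt. In Del/+ 6 of the 7 had a negative log2 difference, down to -0.19, and their part in the Hes5 difference was not tested. Of 6 oligodendrocyte precursor markers, 1 was higher and 1 lower in Del/+ at that level, and sums were 344 to 380 CPM in Del/+ and 332 to 377 in wt. Markers of neuroblasts of the subventricular zone, which a wider dissection could include, had 4 tested genes, none at an unadjusted p under 0.05, and sums of 17.6 to 23.7 CPM among the carriers against 17.9 to 22 CPM in wt. All 6 choroid plexus markers were higher in Del/+ and in Del/Dup at an unadjusted p under 0.05, and 2 of 6 in Dup/+, with none called. Their sum was at 9.34 and 5.21 CPM in Del/+ replicates 1 and 2, inside the wt range, and at 1260 and 94 CPM in replicates 3 and 4. Beside this, with Ttr as a covariate, the log2 differences in Del/+ were -0.59 for Hes5, -0.37 for Neurod2, 0.54 for Stmn1, 0.18 for Pcna and 0.39 for Cdca7, with adjusted p values from 0.175 to 0.284. Ependymal sums were 7.23 to 15.7 CPM in wt and 8.12 to 19.2 CPM among the carriers. All 4 ependymal markers had positive log2 differences in each carrier group, with medians of 0.26 in Del/+, 0.37 in Dup/+ and 0.38 in Del/Dup, and 1 had an unadjusted p under 0.05, in Dup/+. Red cell genes were called higher in Dup/+ (2 of 3), with sums of 135 to 180 CPM against 85.2 to 120 in wt and 77.3 to 122 in Del/+. Of the same 3 genes 2 were also called in Del/+ against Dup/+ and for the slope, and their part in the values of Top2a, Ccna2, Wnt7b, Neurog2 and Eomes was not tested. Of 6 microglia markers, 2 in Del/+, 1 in Dup/+ and 1 in Del/Dup had a lower mean at an unadjusted p under 0.05. Of 4 general neuronal markers, 1 had a higher and 1 a lower mean in Del/+ at that level, none in Dup/+, and 1 a lower mean in Del/Dup. No endothelial marker had an unadjusted p under 0.05 against wt, and Cldn5 of that list was listed at 0 reads throughout.

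Markers of mature hippocampal neurons, which also make Neurod2, Neurod6 and Ccnd2, were counted in the same way against the same background. Of 4 granule neuron markers tested, 2 in Del/+ and none in Dup/+ or Del/Dup had a lower mean at an unadjusted p under 0.05, with none called. The granule neuron sum was 250 to 326 CPM in Del/+ and 327 to 409 CPM in wt, so that the ranges nearly touched. Of all single genes tested, 4.94% were likewise separate between Del/+ and wt. Dup/+ at 325 to 415 and Del/Dup at 219 to 420 CPM overlapped wt. Of 4 pyramidal neuron markers tested, 2 in Del/+, none in Dup/+ and 2 in Del/Dup had a lower mean at that level. Pyramidal sums overlapped throughout, at 683 to 826 CPM in Del/+, 569 to 867 in Dup/+, 631 to 738 in Del/Dup and 676 to 990 in wt. The median was 706 CPM in Del/+, 620 in Dup/+, 657 in Del/Dup and 733 in wt. The log2 difference was negative for 3 of the 4 tested markers in Del/+ and for all 4 in Dup/+ and in Del/Dup. The part of either list in the Del/+ values of Neurod1, Neurod2 and Ccnd2 was not tested.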

How the data were processed

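Hippocampal RNA of 19 rats was sequenced as 50-base single reads. According to the labels and the study's methods, the authors aligned reads with HISAT2 to rat build rn6, counted them per Ensembl gene with HTSeq and deposited raw counts for each library. The labels name a total RNA kit with removal of ribosomal RNA, while another field names polyA RNA. The submitters' processing notes also name bcl2fastq 2.17.1.14, R 3.6 and DESeq2. Summary lines of the counter, such as reads aligned to several places, stayed out of library sizes and tests and served only for the multi-mapped share, with 55% as the limit between low and high.

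Groups came from the labels. From the deposited counts, genes were kept by filterByExpr (15440 of the 24345 with a read), scaled by TMM and tested in R 4.3.3 by edgeR 4.0.16 (quasi-likelihood F test), with 1 mean per genotype over all libraries, prior count 2 and Benjamini-Hochberg adjustment over all genes tested, called under 0.05. Errors of log2 fold changes are SE from the F statistic. Intervals of log2 differences reach 2 SE to either side and so are only approximate. CPM are TMM-scaled. The fit was tested on simulated data. DESeq2 1.42.0, other scalings, no filter, the replicate block, subsets and leaving out each library were alternatives. Nothing says the rats were independent of litter, so p-values measure the spread between these samples. Correlations used 100000 permutations within groups.

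The members and lists were chosen with earlier results of these data known. Values of every library are given for the 2 members with the smallest p against wt in each role and for the usual markers. Of the other pathway genes those called, or else the 2 with the smallest p, are named for each list and each comparison of genotypes. Beyond this rule, the library values of Ccnd2 and Neurog2 and the pairs with Stmn1 were chosen after their values were seen. Promoter windows and their motifs came from RefSeq GRCr8, where 29 of 35 members matched.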

Additional observations from a re-analysis of the deposited data

Results flagged for a closer look

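Single libraries stood apart from the rest of their genotype in 13 of 120 tests of a member within a group, by the gap of the highest or lowest library relative to the range (Dixon's 95% value), where chance gives about 1 in 20. In Del/Dup replicate 3, Hes5 was at 11.1 CPM against 5.64 to 6.43 in the other Del/Dup libraries, Sox11 at 5.34 against 2.84 to 3.13 and Sox2 at 47.5 against 44.2 to 44.5. Igfbpl1 was at 2.21 CPM in Del/+ replicate 3 against 0.615 to 0.726. Among the wt libraries, replicate 2 had Sox2 at 39.9 CPM (others 48.6 to 52.3) and Ccna2 at 0.343 (others 0.612 to 0.651), and replicate 3 had Neurod4 at 0.371 (others at least 0.692). In wt replicate 5, whose labels disagree, Stmn2 was at 311 CPM against 345 to 356. In wt replicate 6, Mcm3 was at 1.95 CPM (others 1.12 to 1.38) and Mcm6 at 3.74 (others 4.78 to 5.07). Bub1 was at 1.85 CPM in Dup/+ replicate 3 (others 1.07 to 1.23) and at 0.974 in Del/Dup replicate 4 (others 1.17 to 1.2), and Aurkb was at 1.07 CPM in Dup/+ replicate 1 (others 0.299 to 0.45).

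Wnt7b was the 1 gene of the pathway lists for which the deletion and the duplication differed past the threshold. These lists held 28, 28 and 34 tested genes, and 0.784% of all genes passed the threshold. The log2 difference of Wnt7b between Del/+ and Dup/+ was -0.40 with an adjusted p of 0.0427. That call was lost in 17 of 29 alternative fits, with adjusted p values of up to 0.167.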

How the results depend on the processing

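The count of members called was 0 in all 5 comparisons. For Del/+ against wt it was 1 under DESeq2 (Pcna) and 1 when only the groups compared were fitted (Hes5). These fits called 6.93% of the genes given an adjusted p and 1.02% of all genes, against 0.771% in the main fit. With only libraries of low multi-mapped share, the log2 differences were 0.87 for Stmn1 and -0.56 for Ccnd2, from 1 Del/+ library assumed to vary like the other groups. Leaving out each library gave 0 to 1 members for Del/+ against wt, 0 to 1 for Dup/+ against wt and 0 to 2 for Del/Dup against wt, and 0 for the other comparisons. With the replicate block 0 members were called, and the block changed no call of a member. In 17 pairs of libraries with the same replicate number, the deviations from the group means correlated at -0.17 to 0.12, with 1 over 0.1. Such values cannot show whether the libraries of a pair shared a litter or a batch. The Mcm6 difference between Del/+ and Dup/+ changed sign, to 0.01 with a term for high multi-mapped share and 0.01 with low-share libraries only, and the cause was not tested. Over 33 single differences and all alternatives, 942 values kept direction and side of the threshold, 7 passed it and 2 changed sign.

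Over all genes, 119 were called in Del/+ against wt, 655 under DESeq2, 299 with low-share libraries only, 72 with the replicate block, 52 with Ttr as a covariate and 46 to 337 without 1 library. For Dup/+ the count was 42, 80 under DESeq2, 12 with wt replicate 5 counted as Dup/+ and 27 to 44 without 1 library. For Del/Dup it was 14, 183 under DESeq2, 57 with wt replicate 5 counted as Dup/+, 7 with the replicate block, 3 with only the groups compared, with the share term or with Ttr, and 2 to 216 without 1 library. For Del/+ against Dup/+ it was 121, 267 under DESeq2, 51 with the share term and 60 to 194 without 1 library. For the slope it was 89, 162 under DESeq2, 43 with the share term, 40 with low-share libraries only and 48 to 124 without 1 library. Del/Dup has no low-share library and so no such value. The fits of Wnt7b were added after its values were seen.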
